A study of Mus musculus with 18 samples.

Results

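The transcripts described here are those of 10 genes used to recognise astrocytes, split by where their protein goes. Gfap, Fabp7, Glul and S100b encode cytosolic proteins. Aqp4, Gja1, Mlc1 and Dag1 encode membrane proteins, and Clu and Agt encode secreted ones. They were taken by gene symbol from a table of PacBio long-read counts per isoform, in which they made up 10 of 17714 gene labels and 162 of 114425 isoforms. All 10 were found and all 10 passed the filter on low counts. The study compared primary mouse brain cultures of astrocytes, microglia and neurons with the small extracellular vesicles (sEVs) they released, as cells and sEVs of each cell type, with 3 libraries in each of the 6 groups and 18 libraries in all. For strain, age, treatment and the origin of the replicates, nothing was given in the sources used here. Hence p-values reflect no more than the scatter among these libraries, which may be technical. Cell and sEV RNA were extracted with different kits and sequenced as separate pools, so fraction, kit and pool cannot be told apart.

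Astrocytes support neurons by clearing glutamate and potassium, by moving water and by secreting lipid carriers, and they wrap blood vessels with endfeet. An mRNA for a membrane or secreted protein is normally translated on the endoplasmic reticulum, where the nascent protein enters the secretory pathway, whereas an mRNA for a cytosolic protein is translated on free ribosomes. sEVs are vesicles that cells shed into the medium, some of them made inside endosomes, and they carry RNA and protein.

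Library totals ran from 434298 to 683381 reads. A read is a full-length cDNA assigned to an isoform, and no count of 1 occurs, so that single reads may lie behind a 0. Levels are CPM, the read counts scaled to 1 common library total after TMM scaling, and a count of 0 was taken to allow up to 3 reads per library. The cultures carried markers of other cells, given here as the summed RPM of a whole list, which is CPM of the unscaled library totals. In astrocyte cells 13 of 14 oligodendrocyte-lineage markers had reads (4873 to 10609, with Mog at 0), and in astrocyte sEVs 12 of 14 (2681 to 4394, with Mog and Olig2 at 0). Of 22 neuron markers, 10 had reads in astrocyte cells (276 to 483) and 12 in astrocyte sEVs (315 to 379), with Slc17a7, Syp, Syt1 and Stmn2 at 0 in both. Of 20 microglia markers, 7 had reads in astrocyte cells (134 to 210) and 10 in astrocyte sEVs (13.004 to 193), with Aif1, Ptprc and Spi1 at 0 in both. The part of these cells in the results was not tested.

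The genes followed the labels of the cell libraries. Every one of the 10 had its highest mean in astrocyte cells among the 3 kinds of cell. With edgeR's quasi-likelihood test and Benjamini-Hochberg adjustment over all 8184 genes tested, 8 of 10 were higher in astrocyte than in neuron cells, where 3.62% of all genes were. Against microglia cells 9 of 10 were higher, where 20.3% of all genes were. Both comparisons share the astrocyte cell libraries. Aqp4, the water channel of endfeet, differed most from neurons, at 854 ± 117 CPM (SD, n = 3) in astrocyte cells against 15.8 ± 12.6 in neuron cells, a 53.9-fold difference (adjusted p = 0.00216, edgeR), but DESeq2 did not call it (adjusted p = 0.0681). Agt, the precursor of angiotensin, was 24.0-fold higher, the connexin-43 gene Gja1 13.02-fold and the intermediate filament gene Gfap 11.1-fold. Clu, a secreted chaperone, was 5.32-fold higher, Mlc1, a membrane protein of astrocyte junctions, 4.66-fold, and Glul, the enzyme that makes glutamine from glutamate, 4.59-fold. Fabp7, a fatty acid-binding protein of radial glia and astrocytes, was only 2.65-fold higher, and without neuron cell replicate 2 it was not called (adjusted p = 0.0604). Mlc1 lost its call when only full-splice matches, reads whose junctions all match an annotated transcript, were counted (adjusted p = 0.306).

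Dag1, dystroglycan, the receptor that ties endfeet to the basement membrane, was 9.47-fold higher in astrocyte than in neuron cells without passing the test (adjusted p = 0.0613, edgeR), although the libraries did not overlap. It passed in 7 of 25 alternatives. These were without astrocyte sEV replicate 1 (adjusted p = 0.0414), astrocyte sEV replicate 2 (0.0476) or microglia sEV replicate 1 (0.0493), and with only the groups compared (0.0049). The others were without the filter on low counts (0.000438), without TMM scaling (0.0486) and without the 2 libraries rich in the predicted gene Gm42047 (0.0353). S100b, a calcium-binding protein, was close to the limit of detection, with 12, 12 and 9 reads in the astrocyte cell libraries and 3 reads in all neuron cells (adjusted p = 0.369, edgeR). The neuron cultures therefore held transcripts of all 10 genes. In a bulk sample, fewer astrocytes and less of a transcript per cell cannot be told apart. Microglia cells held 51 to 107 reads of the 10 genes per library, against 17025 to 19406 in astrocyte cells. Aqp4, Agt and S100b had 0 reads there, which put astrocyte cells at least 100.6-fold higher for Aqp4 and at least 46.5-fold for Agt. S100b was not called against microglia (adjusted p = 0.0827, edgeR), but it was without astrocyte sEV replicate 3 (0.0489). Of the 9 genes called against microglia, Glul differed least, by 3.19-fold.

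**Figure D1:**
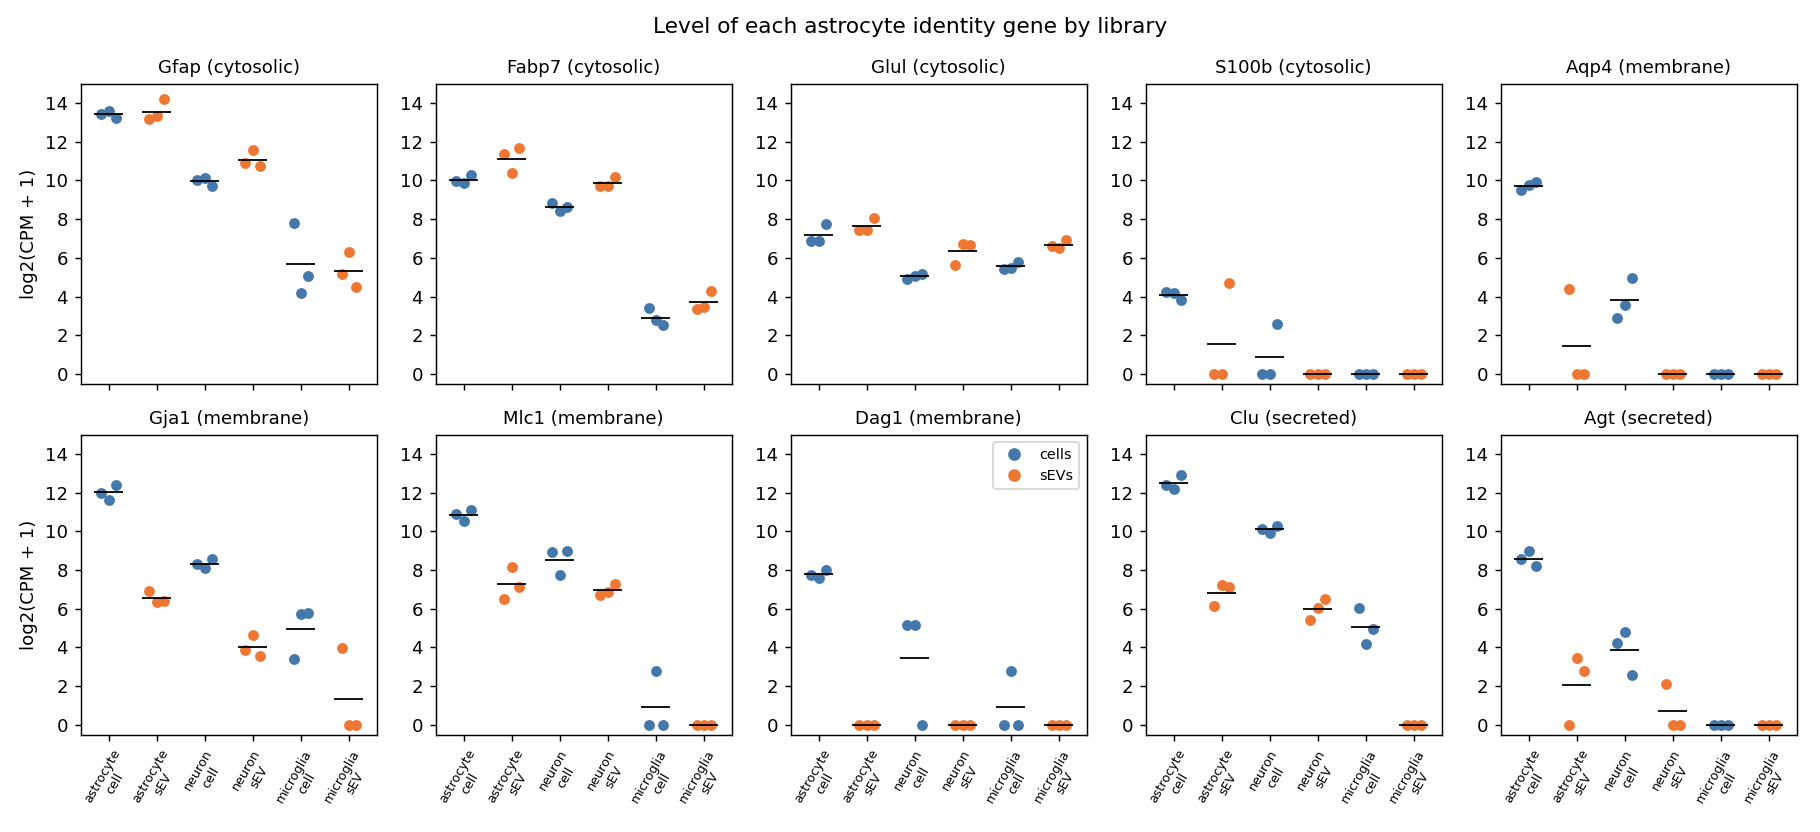
Level of each of the 10 genes in every library, as log2(CPM + 1), for cells (blue) and sEVs (orange) of the 3 cultures; points are libraries and lines are means of the 3. The membrane and secreted genes drop from cells to sEVs in astrocyte and neuron cultures, while Gfap, Fabp7 and Glul stay near their cell level or above it.

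In astrocyte cultures the 10 genes parted by the place of their product. All 6 with a membrane or secreted product fell in sEVs, by 10.8-fold or more, whereas of the 4 with a cytosolic product Fabp7 rose and none fell (edgeR, DESeq2 and edgeR at an unadjusted p under 0.05 alike). Over all genes tested, 12.2% were lower and 8.03% higher in astrocyte sEVs. The median log2 difference, sEVs minus cells, was -5.96 for the 6 genes, or -5.58 with Dag1 set at its bound. It was 0.32 for the 4 cytosolic genes and 0 over all genes.

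Among the membrane genes, Gja1 stood at 4072, 3158 and 5433 CPM in the cell libraries and at 119, 79.2 and 83.4 CPM in the sEV libraries. The groups were far apart, a 45.0-fold difference (log2 -5.49 ± 0.64 SE, adjusted p = 1.06e-05, edgeR). Aqp4 stood at 727, 880.0 and 956 CPM in cells, and its only sEV reads were 15 in replicate 1 (19.8 CPM), with 0 in the other two (log2 -6.83 ± 0.95 SE, adjusted p = 0.000425, edgeR). Dag1 had 148, 134 and 177 reads in the cell libraries (216, 189 and 255 CPM) and no read in any sEV library. The sEV level was thus at most the floor, at least 46.3-fold below the cells (adjusted p = 0.00128, edgeR). Mlc1 had the smallest difference of the 6 genes. It stood at 1885, 1462 and 2238 CPM in cells and at 91.0, 287 and 139 CPM in sEVs, with sEV replicate 2 the highest, a 10.8-fold difference (log2 -3.44 ± 0.49 SE, adjusted p = 0.00014, edgeR).

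Both secreted genes fell too. Clu stood at 5404, 4591 and 7655 CPM in cells and at 69.9, 147 and 140.4 CPM in sEVs, a 49.5-fold difference (log2 -5.63 ± 0.48 SE, adjusted p = 1.17e-06, edgeR). Agt stood at 382, 509 and 294 CPM in cells and at 0, 9.90 and 5.85 CPM in sEVs, the latter from 9 reads in all (log2 -6.28 ± 0.88 SE, adjusted p = 0.000218, edgeR). The calls of all 6 membrane and secreted genes were made under all 25 alternative settings.

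The cytosolic genes gave 1 call. Fabp7 stood at 987, 932 and 1237 CPM in cells and at 2627, 1313 and 3254 CPM in sEVs. The groups did not overlap but sEV replicate 2 came close to the cells, and the rise was 2.28-fold (log2 1.19 ± 0.32 SE, adjusted p = 0.0127, edgeR). The call was lost without astrocyte cell replicate 1 (adjusted p = 0.063), without astrocyte cell replicate 2 (0.0692) or without astrocyte sEV replicate 3 (0.0784). Gfap stood at 11093, 12512 and 9687 CPM in cells and at 9214, 10255 and 18614 CPM in sEVs. Here sEV replicate 3 alone stood above the cells, the log2 difference was 0.19 ± 0.60 SE (adjusted p = 0.906, edgeR), and it turned to -0.21 without that library. Glul stood at 116, 116 and 213 CPM in cells and at 170.1, 172 and 262 CPM in sEVs, overlapping groups with a log2 difference of 0.44 ± 0.34 SE (adjusted p = 0.403, edgeR). S100b had 12, 12 and 9 reads in cells and 0, 0 and 17 in sEVs, and at this depth no difference was detectable (adjusted p = 0.779, edgeR).

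**Figure D2:**
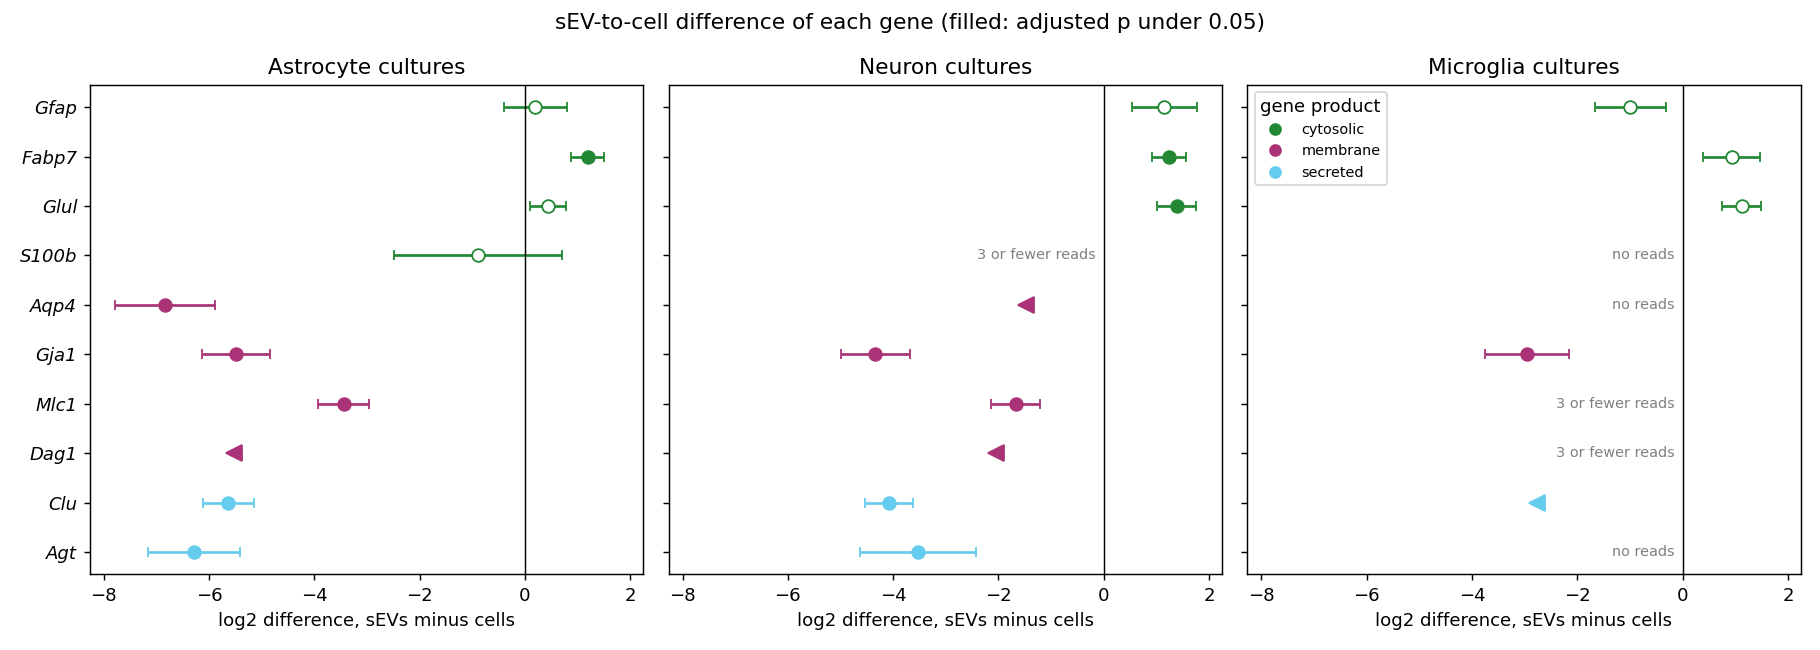
Log2 difference, sEVs minus cells, of each gene in the 3 cultures, with bars of 1 SE; filled symbols have an adjusted p under 0.05 and triangles are bounds for genes with 0 reads in sEVs. In astrocyte cultures the 6 membrane and secreted genes lie at -3.44 or below and the 4 cytosolic genes between -0.90 and 1.19.

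Counted together, the reads of the 10 genes changed their make-up from cells to sEVs. In astrocyte cells 49.1, 55.7 and 39.8% of them came from the 4 cytosolic genes, and in astrocyte sEVs 97.6, 95.7 and 98.4%. Neuron cultures showed 43.9, 49.3 and 36.9% in cells and 94.4, 95.1 and 92.1% in sEVs. The sEV and cell libraries did not overlap in either culture. Most of the cytosolic reads were Gfap. Without it the share was lower in cells, at 8.37 ± 0.54% in astrocytes and 18.7 ± 1.96% in neurons (SD, n = 3), and in sEVs it was 85.0 ± 9.52% and 83.2 ± 1.19%. In microglia the share was 78.5, 45.1 and 52.0% in cells and 90.5, 100 and 100% in sEVs, from 51 to 107 reads per library. These shares are descriptions and were not tested.

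**Figure D3:**
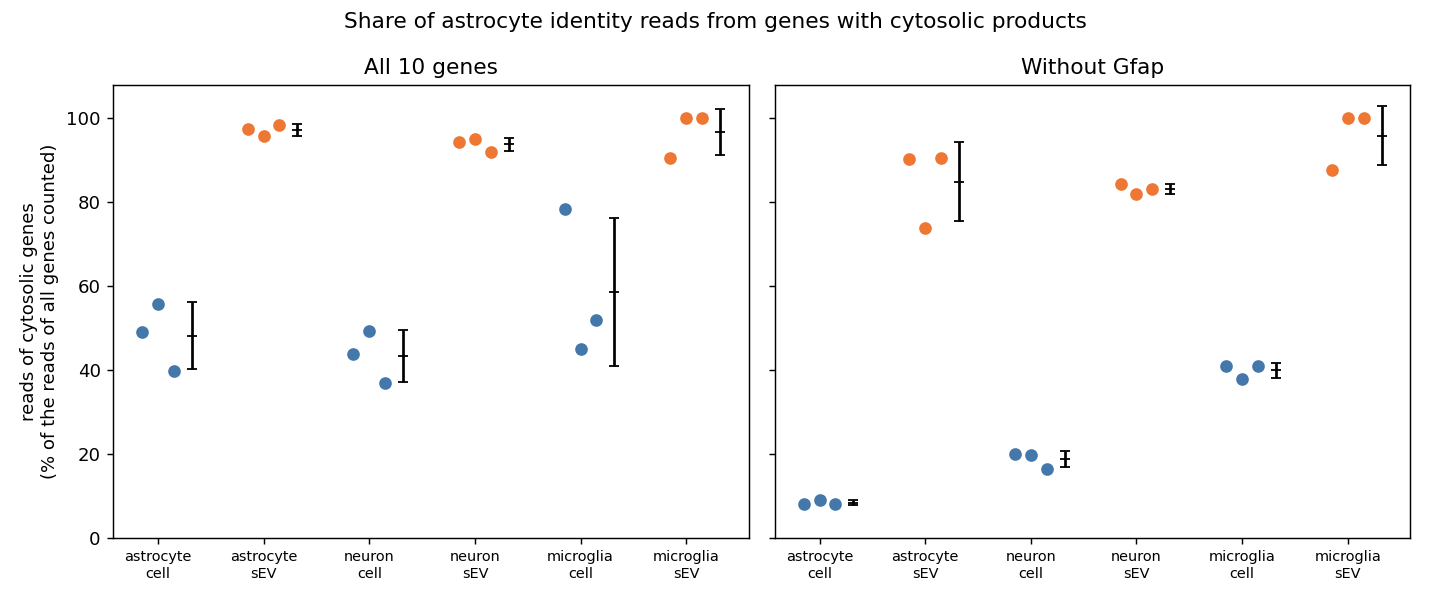
Reads of Gfap, Fabp7, Glul and S100b as a percentage of the reads of all 10 genes (left) and of the 9 genes without Gfap (right), by library; points are libraries (cells blue, sEVs orange) and bars are mean ± SD of 3. Astrocyte cells lie between 39.8 and 55.7% and astrocyte sEVs between 95.7 and 98.4%.

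In neuron cultures the 6 membrane and secreted genes fell in sEVs, where 17.8% of all genes were lower. Fabp7 and Glul rose, where 13.6% of all genes were higher. The median log2 difference of the 6 genes was -4.21, or -2.78 with Aqp4 and Dag1 at their bounds, against 1.20 for the cytosolic genes and -0.10 over all genes. Aqp4, Dag1, Agt and S100b passed the filter on low counts only with the other cultures in the fit. With only the neuron groups fitted, 6 members were tested, of which 3 fell and 3 rose.

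Clu stood at 1112, 950.0 and 1258 CPM in neuron cells and at 42.3, 64.6 and 88.9 CPM in their sEVs, 16.95-fold lower (adjusted p = 8.66e-06, edgeR). Gja1 stood at 312, 279.7 and 380.2 CPM in cells and at 13.55, 23.7 and 10.9 CPM in sEVs, 20.2-fold lower (adjusted p = 0.000102, edgeR). Mlc1 went from 486, 211 and 501 CPM to 103, 116 and 156 CPM, only 3.19-fold lower (adjusted p = 0.013, edgeR). That call was lost without neuron cell replicate 1 (adjusted p = 0.0517), neuron cell replicate 3 (0.0524) or neuron sEV replicate 1 (0.0541). The other membrane and secreted genes rested on few reads. Dag1 had 22, 22 and 0 reads in cells and 0 in sEVs (adjusted p = 0.0154, edgeR), a difference of at least 4.11-fold, so 1 cell library was no higher than the sEVs. Aqp4 had 4, 7 and 18 reads against 0 (adjusted p = 0.0293, edgeR), a difference of at least 2.80-fold, and Agt had 11, 17 and 3 against 2, 0 and 0 (adjusted p = 0.0263, edgeR). Aqp4 was not called by DESeq2 (adjusted p = 0.0713), without neuron cell replicate 3 (0.0915), or without neuron sEV replicate 1, 2 or 3 (0.0698, 0.0639 and 0.0679). Agt was not called without neuron cell replicate 1 (adjusted p = 0.0595) or 2 (0.0952), or without neuron sEV replicate 2 (0.0801) or 3 (0.0867).

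Of the cytosolic genes in neuron cultures, Fabp7 rose from 462, 341 and 389 CPM to 829.9, 827 and 1156 CPM, 2.36-fold (adjusted p = 0.00721, edgeR). Glul rose from 29.0, 32.8 and 35.2 CPM to 49.1, 106 and 99.8 CPM, 2.62-fold (adjusted p = 0.00893, edgeR), but not in a fit without the filter on low counts (0.068). Gfap stood at 1048, 1098 and 841 CPM in cells and at 1887, 3019 and 1733 CPM in sEVs. These libraries did not overlap, yet the 2.22-fold difference did not pass the test (adjusted p = 0.162, edgeR), but it did without microglia cell replicate 1 (0.0472), without the filter on low counts (0.00305) and with only the neuron groups fitted (0.00625). S100b had 3 reads in cells and none in sEVs, too few for a direction.

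Microglia cultures held little of these transcripts. Clu and Gja1 fell, 2 of 10 genes, where 9.2% of all genes were lower. None of the 10 was called higher by edgeR, where 2.65% of all genes were. At an unadjusted p under 0.05 there was 1 such gene, Glul, which DESeq2 called. Clu and Gja1 passed the filter on low counts only with the other cultures in the fit. With only the microglia groups fitted, 2 members were tested, of which 0 fell and 1 rose. Clu had 20, 6 and 13 reads in cells and 0 in every sEV library (adjusted p = 0.000218, edgeR), a difference of at least 6.84-fold. Gja1 had 3, 18 and 23 reads in cells and 8, 0 and 0 in sEVs, which overlap (7.86-fold, adjusted p = 0.0209, edgeR). The Gja1 call was lost without microglia cell replicate 2 (adjusted p = 0.0834) or 3 (0.0972), without microglia sEV replicate 2 (0.077) or 3 (0.0639), without TMM scaling (0.0647) and with full-splice matches only (0.0661). Glul, which microglia also express, stood at 42.4, 43.4 and 53.7 CPM in cells and at 95.7, 89.3 and 121 CPM in sEVs (2.19-fold, adjusted p = 0.0582, edgeR), and it passed in 6 of 25 alternatives, among them without neuron sEV replicate 1 (0.0439). Gfap had 68, 6 and 14 reads in cells and 19, 39 and 13 in sEVs. Its log2 difference of -0.999 ± 0.67 SE turned to 0.80 without microglia cell replicate 1. Fabp7 had 7 reads in cells and 21 in sEVs, Mlc1 and Dag1 had 2 each in 1 cell library and none in sEVs, and Aqp4, Agt and S100b had none in either.

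Whether the sEV-to-cell difference depended on the culture was tested as an interaction in the same fit. None of the 10 genes passed for neurons against astrocytes, where 0.477% of all genes did, or for microglia against astrocytes, where 1.26% did (edgeR). DESeq2 called none in either, with 3 each at an unadjusted p under 0.05. The edgeR test could not decide for Dag1 in neurons or for Agt, Aqp4, Dag1 and S100b in microglia. Groups with 0 reads left their SE at 2020 log2 units or more. Mlc1 in microglia, with 2 reads in cells and none in sEVs, had too few reads to decide. At an unadjusted p under 0.05 edgeR gave 2 genes for neurons and 1 for microglia. The 2 were Mlc1, whose difference was smaller in neurons by 1.77 ± 0.64 log2 units (adjusted p = 0.248), and Clu, by 1.55 ± 0.57 (adjusted p = 0.265). Fabp7 differed by 0.05 ± 0.44 log2 units between neurons and astrocytes, Gfap by 0.96 ± 0.85, Glul by 0.94 ± 0.50 and Gja1 by 1.15 ± 0.85. Counting full-splice matches only, Clu passed for neurons (adjusted p = 0.000579), which follows from its isoforms, described further on.

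Between sEVs of different origin, 4 of 10 genes were higher in astrocyte than in neuron sEVs, where 5.27% of all genes were. Dag1 had 0 reads in both, and Agt, Aqp4 and S100b passed the filter on low counts only with other groups in the fit. With only the astrocyte and neuron sEV groups fitted, 6 members were tested, of which 3 were higher. In the main fit Gja1 was 5.84-fold higher (93.8 ± 21.7 against 16.04 ± 6.75 CPM, adjusted p = 0.0124, edgeR), Gfap 5.74-fold (adjusted p = 0.0124), Fabp7 2.56-fold (0.00821) and Glul 2.37-fold (0.0233). Clu (1.82-fold, adjusted p = 0.19, edgeR) and Mlc1 (1.38-fold, adjusted p = 0.58) did not pass. Of these calls, those of Gja1, Gfap and Glul did not hold without certain single libraries. Without neuron sEV replicate 1 only Fabp7 passed (adjusted p = 0.0573 for Gfap, 0.0591 for Gja1 and 0.11 for Glul), and without neuron sEV replicate 3 Fabp7 and Glul did (0.0553 for Gfap and 0.0581 for Gja1). Glul did not pass without astrocyte sEV replicate 3 (0.107), without the filter (0.107) or with only the groups compared (0.0556). Without the 2 libraries rich in the predicted gene Gm42047 no gene was called by edgeR, with 6 at an unadjusted p under 0.05, while DESeq2 on all libraries called 4. Astrocyte and neuron sEV replicate 1 are those libraries, with 6.76 and 8.94% of their reads on that gene. Against microglia sEVs 6 of 10 genes were higher in astrocyte sEVs, where 25.8% of all genes were. Gfap was 284-fold higher, Fabp7 192-fold, Gja1 19.1-fold, Mlc1 at least 31.3-fold and Clu at least 21.6-fold. Glul was 1.98-fold higher (adjusted p = 0.0311, edgeR), and its call was lost without astrocyte sEV replicate 2 (0.0575) or 3 (0.137) and without microglia sEV replicate 1 (0.0727) or 2 (0.0907). It was also lost without the filter (0.21) and with only the groups compared (0.0799). Agt (adjusted p = 0.0533, edgeR) passed in 6 of 24 alternatives: with DESeq2 (0.0285), without TMM (0.042), without the filter (0.0129), without the Gm42047-rich libraries (0.0139), and without neuron cell replicate 3 (0.0448) or astrocyte sEV replicate 1 (0.0156). Aqp4 (adjusted p = 0.0732, edgeR) passed without the filter (0.000608) or astrocyte sEV replicate 3 (0.0323). Agt rested on 9 astrocyte sEV reads and Aqp4 on 15, all of them in replicate 1, and for both genes the libraries overlapped. Both passed the filter on low counts only with other groups in the fit. With only the astrocyte and microglia sEV groups fitted, 6 members were tested, of which 5 were higher.

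The long reads show which forms of these transcripts were present. Of the 162 isoforms, 16 were full-splice matches and held 87120 of 96702 reads, and 86 were seen in 1 library only, with 536 reads. Gfap had 72 isoforms, Mlc1 30, Clu 20, Fabp7 12, Aqp4 and Gja1 7 each, Glul 5, Agt and Dag1 4 each and S100b 1. In astrocyte sEVs against cells 20 of these isoforms could be tested. Of them 5 fell, where 12.3% of all 9370 tested isoforms did, and 1 rose, where 3.22% did. The share of full-splice matches over all genes was lower in sEVs than in cells, at 78.3 to 84.9% against 88.6 to 89.8% in astrocytes. Fragments lacking the 5′ part of the transcript (3′ fragments) were more frequent, at 5.96 to 7.97% against 2.63 to 2.78%. The part of RNA integrity in the results below was not tested.

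Clu changed in form as well as in amount. Its only full-splice match, isoform 5268, held 94.8, 94.2 and 95.3% of the Clu reads in astrocyte cells (3502, 3062 and 5059 reads). In astrocyte sEVs it had 0 of 53, 74 and 96 Clu reads, 0 of 223 in all, which allows a share of up to 1.35% for counting error only (adjusted p = 3.39e-06 for its level, edgeR). In replicate 1 the Clu reads of those sEVs were instead 31 3′ fragments and 22 reads with part of an intron kept. Replicate 2 had 45 reads with part of an intron kept and 29 other reads, and replicate 3 had 84 3′ fragments and 12 other reads. Isoform 5276, a new combination of known junctions, had 51, 51 and 83 reads in astrocyte cells and 0, 15 and 8 in their sEVs. In neuron sEVs, with fewer Clu reads, isoform 5268 held 22 of 25, 22 of 30 and 38 of 49 of them, against 93.6 to 96.1% in neuron cells. Isoform usage, the isoforms' change relative to one another, was tested with edgeR's diffSpliceDGE in astrocyte sEVs against cells. Clu was the 1 gene called of the 3 that had 2 or more tested isoforms (Simes adjusted p = 0.0186), where 2% of all 1752 genes tested were. Leaving out a library gave 0.000129 to 0.0229. The main test held 4 Clu isoforms, 5268, 5276, 5270 and 5273, with 0, 23, 10 and 4 reads in astrocyte sEVs. The 3′ fragment 5271 and isoform 22248, which keeps part of an intron, with 115 and 67 reads there, were not tested. The call therefore does not cover these 2 forms.

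Gfap, whose level gave no call, was mostly read as isoform 3309, a full-splice match with 83.6, 90.1 and 89.6% of the Gfap reads in astrocyte cells. In astrocyte sEVs that share was 89.8, 67.2 and 77.0%. Much of the rest was isoform 30610, a form outside the catalogue that the table marks Alt3. It had 0, 1504 and 2001 reads in the astrocyte sEV libraries, 29.0 and 15.7% of Gfap reads in replicates 2 and 3, against 0, 0 and 3 reads in astrocyte cells and none in neuron or microglia libraries. With reads in 2 sEV libraries it did not pass the filter for 3 and was not tested, and Gfap usage was not called (adjusted p = 0.185, diffSpliceDGE). Leaving out 1 library lowered the filter's smallest group to 2, and Gfap usage was then called in 13 of 18 cases, with adjusted p from 2.47e-05 to 0.704.

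Mlc1 varied between libraries of 1 group. Isoform 6430, the reference match, held 57.9, 68.3 and 68.6% of Mlc1 reads in astrocyte cells, 100, 40.7 and 89.5% in their sEVs, and 86.9, 0 and 0% in neuron sEVs. In neuron sEV replicates 2 and 3 nearly all Mlc1 reads (51 of 54 and 86 of 86) were isoform 6428, which keeps an intron and had 4 of 61 reads in replicate 1. Isoform 6428 was also present in cells, at 330 ± 308 CPM in astrocytes and 70.3 ± 118 CPM in neurons (SD, n = 3). It had 0 CPM in astrocyte sEVs, a difference that did not pass (adjusted p = 0.0776, edgeR). Isoform 6432, with part of an intron kept, had 22, 292 and 31 reads in astrocyte cells and none in their sEVs (adjusted p = 0.0195, edgeR), whereas 6430 did not pass (0.0561). The call for 6432 was lost without astrocyte cell replicate 2 (adjusted p = 0.0978), astrocyte sEV replicate 1 (0.0654) or astrocyte sEV replicate 3 (0.0608). Mlc1 usage was not called (adjusted p = 0.442, diffSpliceDGE).

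Among the other isoforms, Gja1 isoform 1401, a reference match, fell from 2771, 2225 and 3085 reads in astrocyte cells to 76, 40 and 57 in sEVs (adjusted p = 0.00184, edgeR). Gja1 isoform 29806, with an exon outside the annotation, had 674 reads in astrocyte cell replicate 3, 17.9% of Gja1 reads there, and 0 in the other two. Aqp4 isoform 8423 fell from 497, 619 and 654 reads to 0 (adjusted p = 0.000484, edgeR). The 15 Aqp4 reads in sEVs were all isoform 32738, which had 3 reads in astrocyte cells. Like 8423 it is a full-splice match marked as having alternative ends. Agt isoform 17976 fell from 261, 360 and 202 reads to 0, 0 and 4 (adjusted p = 0.0026, edgeR), and the 5 Agt reads of sEV replicate 2 were a 3′ fragment. Dag1 was isoform 18949 in astrocyte cell replicates 1 and 3 (148 and 177 reads), while replicate 2 had 0 of it, 92 reads of the full-splice match 28825 and 42 of a 3′ fragment. Fabp7 isoform 1413, a reference match, rose from 652, 645 and 826 reads to 1916, 661 and 2124 (adjusted p = 0.0469, edgeR), and that call was lost in 10 of 18 fits that left out a library (any astrocyte or neuron cell library, microglia cell replicate 2 or 3, or astrocyte sEV replicate 1 or 3), with adjusted p from 0.053 to 0.201. The next Fabp7 isoform, 84436, had 96 reads, all in astrocyte sEV replicate 3. Glul was isoform 765 in 1100 of its 1117 reads, with 8 of isoform 95696 in microglia sEV replicate 3, and all 53 S100b reads were isoform 1574.

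**Figure D4:**
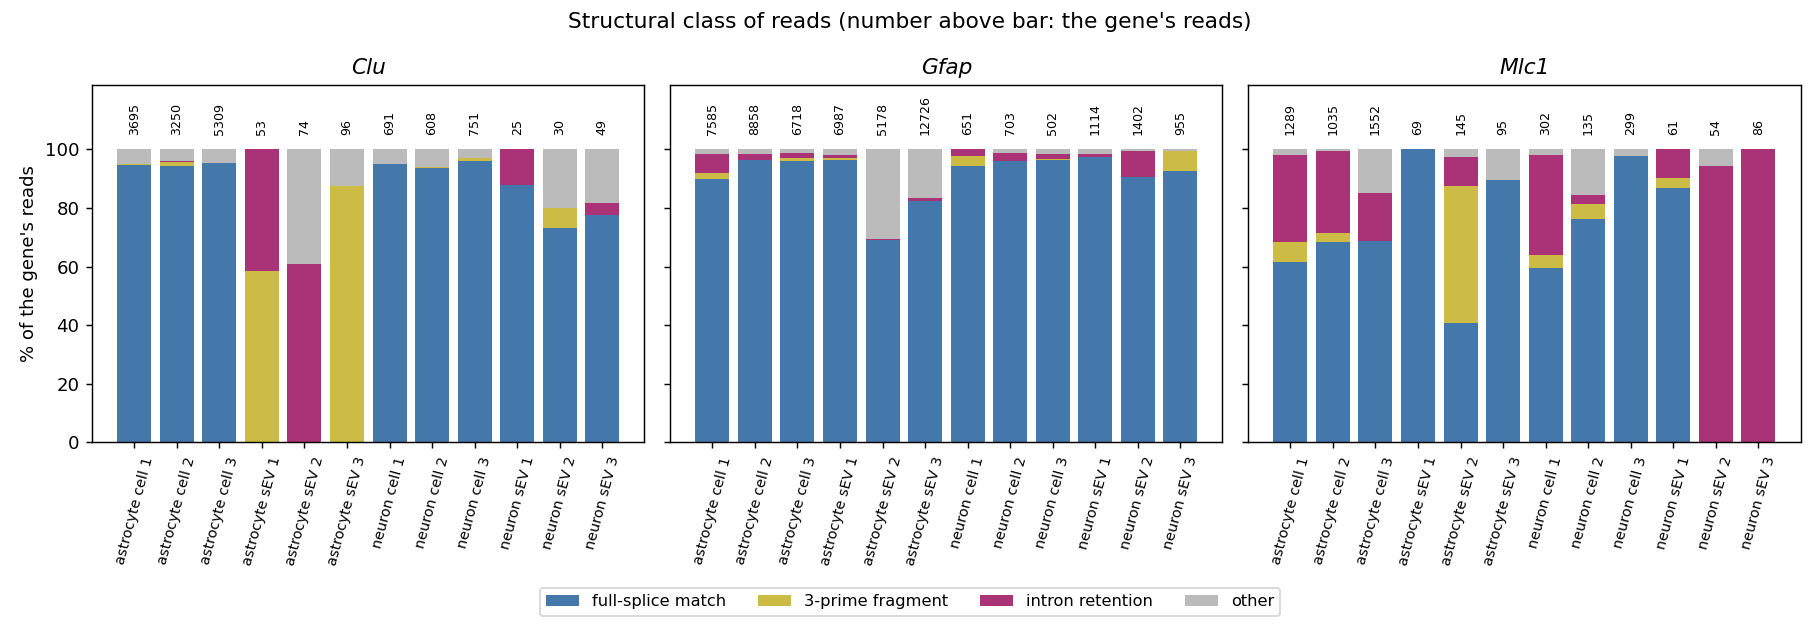
Structural class of the reads of Clu, Gfap and Mlc1 in each astrocyte and neuron library, as a percentage of the gene's reads, whose number stands above each bar. The intron retention class includes reads that keep only part of an intron. Full-splice matches are missing from Clu in the 3 astrocyte sEV libraries and from Mlc1 in neuron sEV replicates 2 and 3, and the "other" class of Gfap is large in astrocyte sEV replicates 2 and 3.

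Other genes known from astrocytes were listed by the place of their product. Of 28 listed genes with a cytosolic or nuclear product, among which the mitochondrial enzyme Glud1 was also listed, 21 could be tested. In astrocyte sEVs 2 rose and 1 fell, with a median log2 difference of 0.20. Of all genes 8.03% were higher and 12.2% lower there, so the 2 that rose were near that share. Zbtb20, a transcription factor of astrocytes, rose from 81.4 ± 19.1 to 879.7 ± 508 CPM, and Pea15a, a phosphoprotein that binds death-effector domains, rose 1.87-fold. Acsbg1, an acyl-CoA synthetase, fell 2.51-fold. Of 35 genes with a membrane product 27 could be tested and 21 fell, with a median of -3.01. Cd44, the hyaluronan receptor, the urea transporter Slc14a1 and the GABA transporter Slc6a11 had no reads in sEVs and were at least 21.007-fold, 16.8-fold and 10.1-fold lower. Of 26 genes with a secreted product 19 could be tested and 16 fell, with a median of -3.96. The protease Htra1 went from 391 reads in all cell libraries to 6 in sEVs, the matrix protein Ncan from 111 to 2 and the protease inhibitor Timp3 from 301 to 7. None of the membrane or secreted genes was called higher by edgeR, also at an unadjusted p under 0.05, or by DESeq2. DESeq2 called 5 of the cytosolic or nuclear genes higher and 2 lower, where it called 919 higher and 1257 lower of all 8154 genes. The adjusted p-values of the list genes named with values for astrocyte sEVs, here and in what follows, ran from 3.73e-07 to 0.0402 (edgeR). These lists, like the 10 genes, were chosen with results of these data known.

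In neuron cultures 8 of 21 tested cytosolic or nuclear genes rose and none fell (edgeR, with 0 also unadjusted and by DESeq2), with a median of 1.10, where 13.6% of all genes were higher and 17.8% lower. Of the membrane genes 14 of 27 fell and 1 rose, Tril, with 38 reads in cells and 223 in sEVs. Of the secreted genes 16 of 19 fell. In microglia, where 9.2% of all genes were lower and 2.65% higher, 2 of 21 cytosolic or nuclear genes fell (Ckb and Phgdh) and 1 rose (Dbi), and 3 of 27 membrane genes fell (Atp1b2, Cd44 and F3) and 1 rose (Gpm6a, from 2 reads to 71). These counts are near those over all genes. Of the secreted genes 7 of 19 fell. The genes named for neurons and microglia were chosen after their values were seen.

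**Figure D5:**
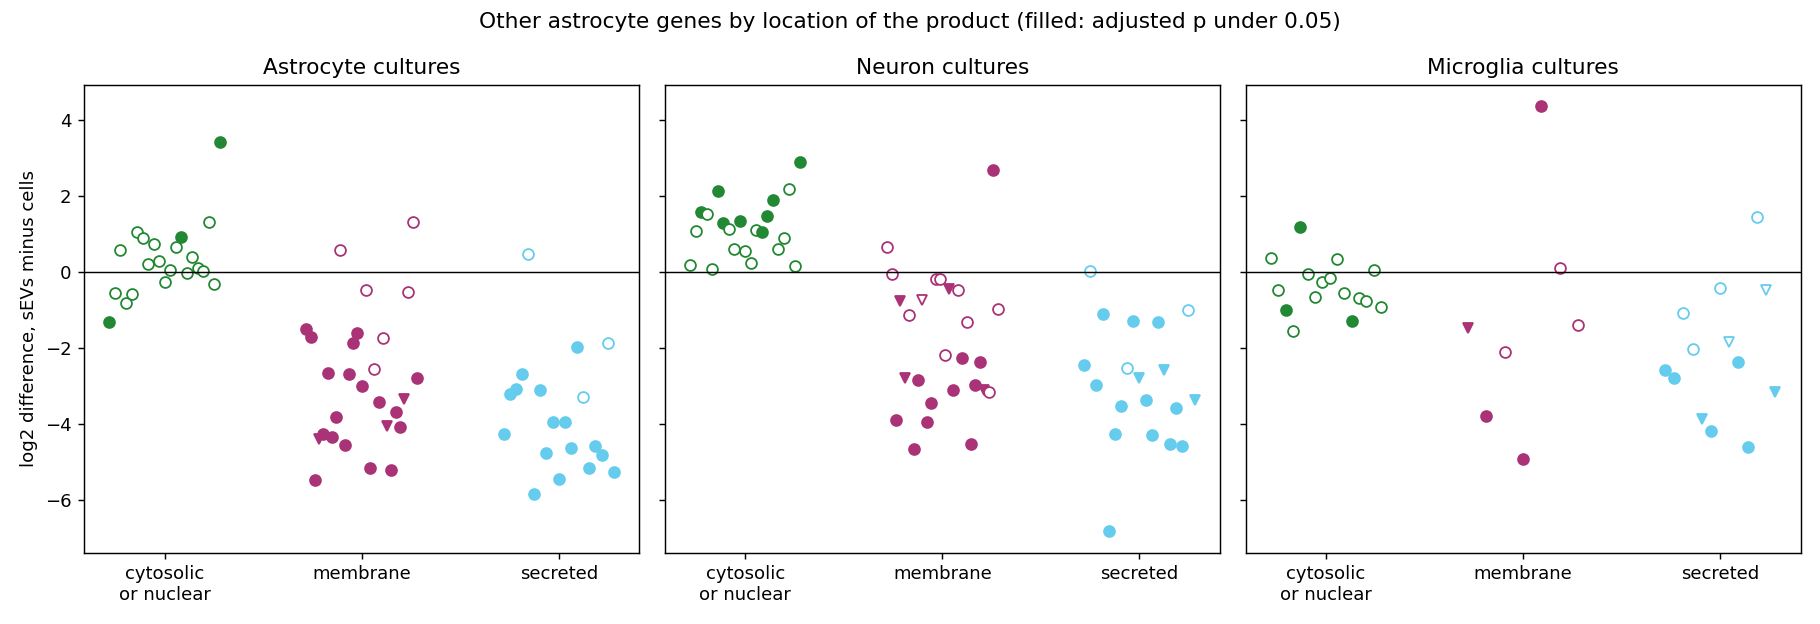
Log2 difference, sEVs minus cells, of other astrocyte genes by the place of their product in the 3 cultures; each symbol is a gene, filled where the adjusted p is under 0.05, and triangles are bounds for genes with 0 reads in sEVs (down) or in cells (up). In astrocyte cultures 21 of 27 membrane and 16 of 19 secreted genes fell, against 1 of 21 cytosolic or nuclear genes and 12.2% of all genes. Genes at or under the bound in both groups are not drawn.

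Partners of the 10 genes are set against the 12.2% of all genes that were lower in astrocyte sEVs. Of the dystroglycan complex and its ligands 3 of 9 tested genes fell in astrocyte sEVs, all of them membrane proteins of the complex: Sgcb 16.02-fold, Sgce 9.98-fold, and Sspn. DESeq2 called 2 of the 9. Of the enzymes that put sugars on dystroglycan 4 of 9 fell, among them B4gat1 17.4-fold, Pomt1 from 110 reads to 2, and Pomgnt2 at least 6.77-fold with no reads in sEVs. Of 5 tested partners of the Mlc1 protein 3 fell, the sodium pump subunit Atp1b1 15.6-fold, the receptor Gpr37l1 3.67-fold and the adhesion molecule Hepacam 3.06-fold. In glutamate and glutamine handling 2 of 7 fell, the glutamine transporter Slc38a3 from 286 reads to 2 and the glutamate transporter Slc1a3 36.7-fold, both membrane proteins, while the cytosolic enzyme Glul was not called. Both tested genes of the renin-angiotensin system fell, the prorenin receptor Atp6ap2 47.6-fold and the lysosomal protease Ctsd 17.8-fold. Of apolipoproteins and clusterin receptors 2 of 6 fell, Apoe 19.3-fold and the receptor Lrp1 4.06-fold.

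Relatives of the cytosolic genes gave few calls in astrocyte sEVs, where 8.03% of all genes were higher and 12.2% lower. At those shares so few genes would give few calls. Of 5 tested intermediate filament genes none passed, with 1 at an unadjusted p under 0.05, and of 5 tested S100 paralogs none passed and none did so unadjusted (edgeR). DESeq2 called none of either list. Of 5 genes of fatty acid binding 1 was called higher, Fabp3, with 6 sEV reads and none in cells, which is too few for a fold. Of 3 tested connexin and junction genes none passed by edgeR, also unadjusted, or by DESeq2, and other connexins were too low to test.

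The genes whose pattern over the 18 libraries was most like that of a member, by Pearson's r of log2 CPM with a prior count of 2, are given as a description, since the libraries share their groups and depth. Gfap was most like Hspb8 (r = 0.969), Plcd4 and Tst. Fabp7 was most like Asrgl1 (r = 0.984), Prkag2 and Fhl1, and Glul like Myo10 (r = 0.853), Rab7b and Eif5. S100b was most like Sntg2 (r = 0.953), Adh5 and 2610507I01Rik. For Aqp4 they were Igsf1 (r = 0.966), Sema6d and Igsf11, for Gja1 Plat (r = 0.949), Atraid and Tmem47, for Mlc1 Ttyh1 (r = 0.991), Shisa4 and Mboat2, and for Dag1 Cpt1a (r = 0.961), Olig2 and St6galnac3. For Clu they were Atp1b2 (r = 0.985), Epdr1 and Tm7sf3, and for Agt Cpt1a (r = 0.946), the member Dag1 and Lcat.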

How the data were processed

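RNA of cultured mouse astrocytes, microglia and neurons and of their sEVs was reverse transcribed with a low-input kit, amplified and sequenced on a PacBio instrument, per the labels' protocols. The authors deposited raw read counts for each isoform, beside its gene symbol and structural class. The submitters' processing notes name minimap2 and GRCm39. Tool versions, the isoform caller and its annotation were not given in the sources used here. No coordinates or transcript sequences were used.

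Counts were summed per gene symbol and fitted with edgeR 4.0.16 in R 4.3.3 over all 18 libraries (filterByExpr, TMM, quasi-likelihood F tests, threshold 0.05 after Benjamini-Hochberg adjustment over 8184 genes or 9370 isoforms). Usage was tested with diffSpliceDGE, and DESeq2 1.42.0 was an alternative. The scripts were tested on simulated data. The SE of a log2 difference is its size divided by the square root of F. Folds are ratios of mean CPM, given as "at least" against a group with 0 reads, set at 3 reads per library. Intervals and floors cover counting error only.

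The 10 genes, the other lists and the tests were chosen with earlier results of these data known. Named were all 10 genes, their 2 most abundant isoforms and every one called in astrocyte sEVs, up to 3 called genes per list with a mean count of 20 or more, and the 3 genes most like each member. Lists of blood, ependymal and vessel markers were also summed. Blood markers had no reads in astrocyte libraries, 8 of 11 ependymal markers summed to 103 to 163 RPM in astrocyte cells, and 6 of 13 fibroblast and vessel markers to 66.5 to 177 RPM. Whether cell and sEV libraries of the same number belong together was not given. Their deviations from the group means correlated at -0.0815 to 0.0794, and those of differently numbered libraries at -0.0819 to 0.0734. Values this small cannot decide the pairing, and the libraries were treated as unpaired in the main fit.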

Additional observations from a re-analysis of the deposited data

How the results depend on the processing

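The 6 members lower in astrocyte sEVs stayed 6 under every alternative, and the 1 higher fell to 0 in some fits that left out a library (range 0 to 1). Leaving out a library gave 4 to 6 members lower and 2 to 3 higher in neuron sEVs, 1 to 2 lower and 0 to 1 higher in microglia sEVs, 7 to 9 and 9 to 10 higher in astrocyte than in neuron or microglia cells, 1 to 4 and 5 to 7 higher in astrocyte than in neuron or microglia sEVs, 4 to 7 isoforms lower and 0 to 1 higher, and 1 to 2 members with changed usage. Such fits also tested more genes (8869 to 9084) and more member isoforms (25 to 29), because the smallest group was 2. With only the groups compared, 3 members were lower in neuron sEVs and 0 in microglia sEVs, since 6 and 2 members passed the filter. Counts of members lower in microglia sEVs were 1 without TMM and 1 with full-splice matches only. Members higher there were 1 with DESeq2, without TMM, with only the groups compared, with the replicate block and, an alternative added after seeing the data, without the libraries rich in Gm42047. That last setting left 0 higher in astrocyte than in neuron sEVs. Interactions gave 1 for neurons with full-splice matches only and 1 for microglia without the filter, and 12 member isoforms were lower without it. The replicate block changed no other member count, such as 6 lower in astrocyte sEVs, and in the labels the samples share only a number.

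The cytosolic share without Gfap was 8.37% in astrocyte cells, 18.7% in neuron cells and 39.9% in microglia cells, and 85.0% and 83.2% in astrocyte and neuron sEVs. Full-splice matches only gave 96.9% in neuron sEVs. As a mean log2 difference, cytosolic minus other genes, it was -1.58, -0.26 and 1.42 in astrocyte, neuron and microglia cells and 4.51, 3.88 and 3.79 in their sEVs. Leaving out a library gave 44.5 to 52.4, 40.4 to 46.6 and 48.5 to 65.2% in those cells and 96.7 to 98.0, 93.3 to 94.8 and 95.2 to 100% in those sEVs. Of the single-gene values, 4 turned: Gfap in astrocyte sEVs (-0.21 without sEV replicate 3, other such fits up to 0.37) and in microglia sEVs (0.80 without cell replicate 1, others down to -1.65), Mlc1 in astrocyte against neuron sEVs (-0.073 without astrocyte sEV replicate 2, others up to 0.76), and Clu there with full-splice matches only (-7.88, adjusted p = 0.000158, edgeR), which follows from its 0 such reads in astrocyte sEVs. For the others the cause was not tested. Of the other single-gene values, over all alternatives, 1581 kept their call, 44 lost it and 28 gained it. Without TMM the median over all genes moved in neurons from -0.10 to -0.47 and in astrocyte against microglia cells from 0.52 to 1.33. Few reads limit S100b, the sEV values of Agt, Aqp4 and Dag1, and most values in microglia.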

Other observations

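Some isoforms joined a member to its neighbour under a label of their own and are not in the member's counts. Fabp7_Smpdl3a had 182 reads in 5 isoforms, of them 89 and 34 in astrocyte sEV replicates 1 and 3, 36 in neuron sEV replicate 3, 14 in astrocyte cell replicate 3 and 9 in neuron cell replicate 3. Smpdl3a_Fabp7 had 102 reads in 6 isoforms, of them 26 in astrocyte sEV replicate 2, 19 and 15 in astrocyte cell replicates 1 and 2, and 26 and 16 in neuron sEV replicates 1 and 2. In no library with reads of either label did both appear. Gfap_Eftud2 had 2 reads in 1 library.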
